A study of Homo sapiens with 2 samples.

Results

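The genes described were the centrins CETN2 and CETN3, the centrin-binding proteins POC5 and SFI1, and 6 genes that start and build a new centriole (PLK4, STIL, SASS6, CEP152, CEP192 and CENPJ). CETN3 was chosen by the exon reads of these same libraries, which are not used here, and the other genes were chosen by their known function, all with earlier results of these data known. The 10 genes stood among 54261 genes in the count table, and all 10 passed a mean of 1 CPM (counts scaled to a common library size), as did 12620 genes in all. Since the members were picked with results in view, their values are a description.

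RKO, a human colorectal carcinoma cell line, was grown in DMEM with fetal bovine serum and transfected either with a control siRNA (si-NC, labelled control) or with one that targets SRSF2 (si-SRSF2, labelled siSRSF2). SRSF2 is a serine/arginine-rich protein that guides the choice of exons during splicing. Poly(A) RNA was sequenced, with 1 library per group, and the comparison made here asks which genes differ in transcript level once SRSF2 is reduced. Counts summed to 19931360 over 19882 genes with si-NC and to 14512802 over 19467 genes with si-SRSF2. With 1 library per group, no difference had a replicate check, and every interval given covers counting error only and compares these 2 libraries, not the conditions.

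Centrioles are small cylinders of microtubules that organise the centrosome and the base of the cilium, and a cycling cell builds a single new one beside each old one per division cycle. The kinase PLK4, brought to the old centriole by CEP152 and CEP192, recruits STIL and SASS6, which form the cartwheel that gives the new centriole its symmetry, and CENPJ then adds tubulin to its wall. Centrins are calcium-binding proteins of the centriole lumen and distal part, where POC5 and SFI1 carry repeated centrin-binding motifs, and CETN2 also works in the nucleus with the repair protein XPC.

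CETN3 lies on the minus strand of GRCh38 at chr5:90392257-90409766. In GENCODE release 44 its main 5-exon transcript and a 6-exon transcript share exon 4, of 192 bases, and end at the same stop codon, and their coding sequences differ by exon 5, of 72 bases, at chr5:90396493-90396564. Intron sequence of 2793 bases separated this exon from exon 4, and 2385 bases separated it from exon 6. It is printed with 20 bases of intron on each side (chr5:90396473-90396584, minus strand), since it is the only difference in coding sequence between the short and long forms, and capitals mark the exon.
CETN3 exon 5: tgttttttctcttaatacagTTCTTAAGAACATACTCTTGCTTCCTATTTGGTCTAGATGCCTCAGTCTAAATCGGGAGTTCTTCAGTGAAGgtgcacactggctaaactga
The 72 bases added 24 codons, taking the open reading frame from 167 to 191 codons without a stop codon before the shared one. Exon 4 ended after 153 whole codons and 1 base of the next codon, so the insertion fell inside a codon, and 13 codons followed before the stop.

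**Figure D1:**
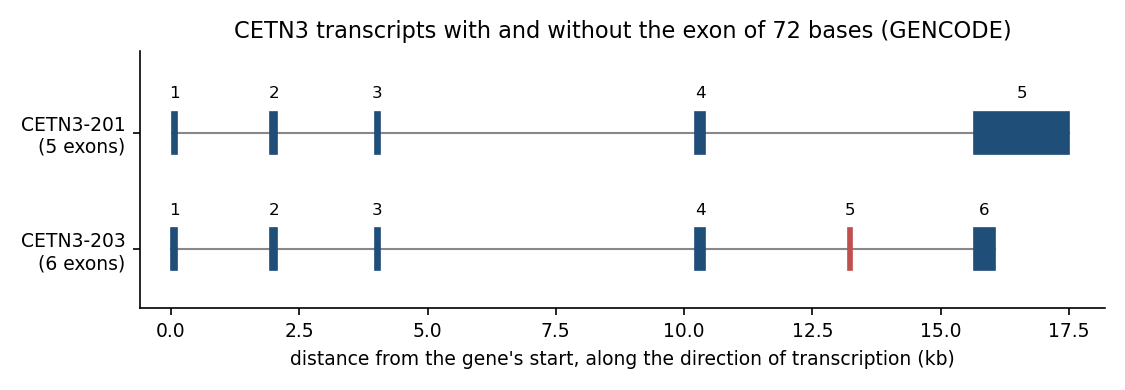
Exons of the 5-exon and 6-exon CETN3 transcripts, plotted as boxes by distance from the gene's start in kb, with lines for introns and the exon of 72 bases in red. Exons 2 to 4 are the same in both, exon 1 has 112 and 113 bases and the last exon 1851 and 398 bases, and the red exon lies between exon 4 and the last exon.

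The study designed an shRNA against each form across the junction after exon 4. The target strands are shown because they mark where the forms part, with capitals for the bases past the end of exon 4.
sh-CETN3-L: aagtgatggagaaaTTCTTAA
sh-CETN3-S: aagtgatggagaaaTAAACCA
In each 21-base target, bases 3 to 21 matched the intended transcript without a gap, 12 in exon 4 and 7 past it. The longest stretch of either target found in the other transcript was 13 bases, 1 more than the part in exon 4.

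GGNG or CCNG, the short words that the RNA-binding domain of SRSF2 is known to prefer, were counted on the transcribed strand of exon 4, exon 5 and the 44 coding bases of exon 6. Capitals mark the matches, and overlapping matches were counted.
CETN3 exon 4: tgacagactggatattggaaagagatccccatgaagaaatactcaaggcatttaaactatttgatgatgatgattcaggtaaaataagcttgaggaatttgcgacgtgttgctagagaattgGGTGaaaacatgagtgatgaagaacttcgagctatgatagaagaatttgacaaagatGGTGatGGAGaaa
CETN3 exon 5: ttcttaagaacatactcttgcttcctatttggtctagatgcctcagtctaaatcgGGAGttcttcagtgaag
CETN3 exon 6, coding: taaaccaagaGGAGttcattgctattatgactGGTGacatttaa
Exon 4 held 3 matches, exon 5 held 1 and the coding part of exon 6 held 2, all of the GGNG form. Of 556 internal exons of 192 bases in protein-coding transcripts, 99.3% held at least 1 match, with a median of 8, so exon 4 lay below the median. Of 1388 internal exons of 72 bases, 86.1% held 1 or more, with a median of 2. Of the first 44 bases of 38845 last exons, 76.1% held 1 or more, with a median of 1. A match is a description of these letters and not a binding site.

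SRSF2 itself was examined first. It had 1964 counts with si-NC against 713 with si-SRSF2, or 98.5 and 49.1 CPM, which left 49.9% of the control level. The targeted gene was thus lower in the library labelled siSRSF2, the direction the labels give. For each gene, the log2 ratio, with si-SRSF2 over si-NC, came from CPM plus a pseudocount of 0.5 CPM, and the 95% Clopper-Pearson interval was that of the ratio of counts without a pseudocount. The ratio of SRSF2 was -0.997 (-1.13 to -0.88).

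The 4 centrin genes and centrin-binding genes had nearly equal levels in both libraries, and the 6 assembly genes were all lower in si-SRSF2. None of the 10 genes reached a 1.5-fold difference in either direction. Of all 12620 genes, 4.18% were at least 1.5-fold higher and 3.52% at least 1.5-fold lower. With a minimum of 5 CPM, 202 genes were that much higher and 237 lower, in place of 527 and 444. Intervals lay below 0 for 6 of the 10 genes and above 0 for 0, against 26.7% and 21.0% of all genes. The median log2 ratio of the 10 was -0.22, and that of all genes -0.02. In total 8 of the 10 were lower in si-SRSF2, as were 53.8% of all genes. The balance of all genes turned with the scaling: upper-quartile factors gave 2991 genes with an interval below 0 and 3020 above 0, in place of 3366 and 2646. There 50.2% of all genes were lower, as were 8 of the 10 members, of which 6 had an interval below 0. In bulk RNA, fewer cells of a kind, such as cells in a given stage of the division cycle, and less RNA per cell cannot be told apart.

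How often an interval clears 0 depends on depth. The members' mean levels ran from 9.90 to 73.1 CPM, and 6026 genes lay in that range. Among those, 27.4% had an interval below 0, 19.2% had one above 0, and 55.6% were lower in si-SRSF2. These shares were close to those of all genes. The 6 genes with an interval below 0 had means of 33.5 to 73.1 CPM, and shares for that narrower range were not computed.

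Among the centrins, CETN2 (chrX:152826994-152830757, minus strand), the form also found in nuclear repair complexes, had 969 counts with si-NC against 735 with si-SRSF2, or 48.6 and 50.6 CPM. Its log2 ratio was 0.06 (-0.08 to 0.20). CETN3, the centrin related to yeast Cdc31, had 685 and 476 counts, or 34.4 CPM (95% Poisson interval 31.8 to 37.0) and 32.8 CPM (29.9 to 35.9). The summed level of the CETN3 gene thus differed little, with a log2 ratio of -0.07 (-0.24 to 0.10), and a difference in its amount was not detectable at this depth. Gene counts do not separate the forms with and without exon 5.

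POC5 (chr5:75674124-75717448, minus strand), which binds centrins in the lumen of the distal centriole, was the least abundant of the 10 per kb of transcript and had 190 and 149 counts, or 9.53 and 10.3 CPM. Its ratio of 0.10 had the widest interval of the 10 (-0.21 to 0.42). SFI1 (chr22:31488688-31618588, plus strand), a long protein that carries many centrin-binding repeats, had 1082 and 774 counts, or 54.3 and 53.3 CPM, with a ratio of -0.03 (-0.16 to 0.11). All 4 intervals included 0, and the summed level of the 4 genes was 146.8 CPM with si-NC against 147.03 CPM with si-SRSF2. SFI1 shares 7.34% of its canonical transcript with exons of DRG1 on the same strand, so some of its reads are uncertain.

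PLK4 (chr4:127880893-127899224, plus strand), the kinase that triggers centriole duplication, had 1557 counts with si-NC against 927 with si-SRSF2, or 78.1 and 63.9 CPM. Its log2 ratio was -0.29 (-0.41 to -0.17). STIL (chr1:47250139-47314892, minus strand), the substrate of PLK4 that brings SASS6 to the site, had 1380 and 821 counts, or 69.2 and 56.6 CPM, also with a ratio of -0.29 (-0.42 to -0.17). The kinase and its substrate were therefore lower by nearly the same factor, with 81.8% and 81.7% of the control CPM.

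SASS6 (chr1:100083563-100132955, minus strand), the building block of the cartwheel, had 777 and 407 counts, or 39.0 and 28.0 CPM. Its ratio was -0.47 (-0.65 to -0.30), and 71.9% of the control CPM was left. Its canonical transcript shares 7.59% of its bases with an overlapping gene model on the same strand. Together the kinase, its substrate and the cartwheel protein summed to 186.4 CPM with si-NC against 148.5 CPM with si-SRSF2.

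CEP152 (chr15:48712928-48811146, minus strand), the scaffold that holds PLK4 at the old centriole, had 1241 and 610 counts, or 62.3 and 42.0 CPM. Its ratio of -0.56 (-0.71 to -0.43) was the lowest of the 10, and 67.5% of the control CPM was left. Of all genes, 3.85% had a lower ratio than CEP152 and 6.22% a lower one than SASS6. These genes lay in the low tail of the table, short of the 1.5-fold mark.

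CEP192 (chr18:12991362-13125052, plus strand), the scaffold that first recruits PLK4 and also organises the pericentriolar material, had 1536 and 1002 counts, or 77.1 and 69.0 CPM. Its ratio was -0.16 (-0.28 to -0.04), the nearest to 0 of the assembly genes, and 29.4% of all genes had a lower one. CENPJ (chr13:24882279-24922889, minus strand), which controls the length of the new centriole, had 1259 and 718 counts, or 63.2 and 49.5 CPM, with a ratio of -0.35 (-0.49 to -0.22). The 3 scaffold and elongation genes together summed to 202.5 CPM with si-NC against 160.5 CPM with si-SRSF2.

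**Figure D2:**
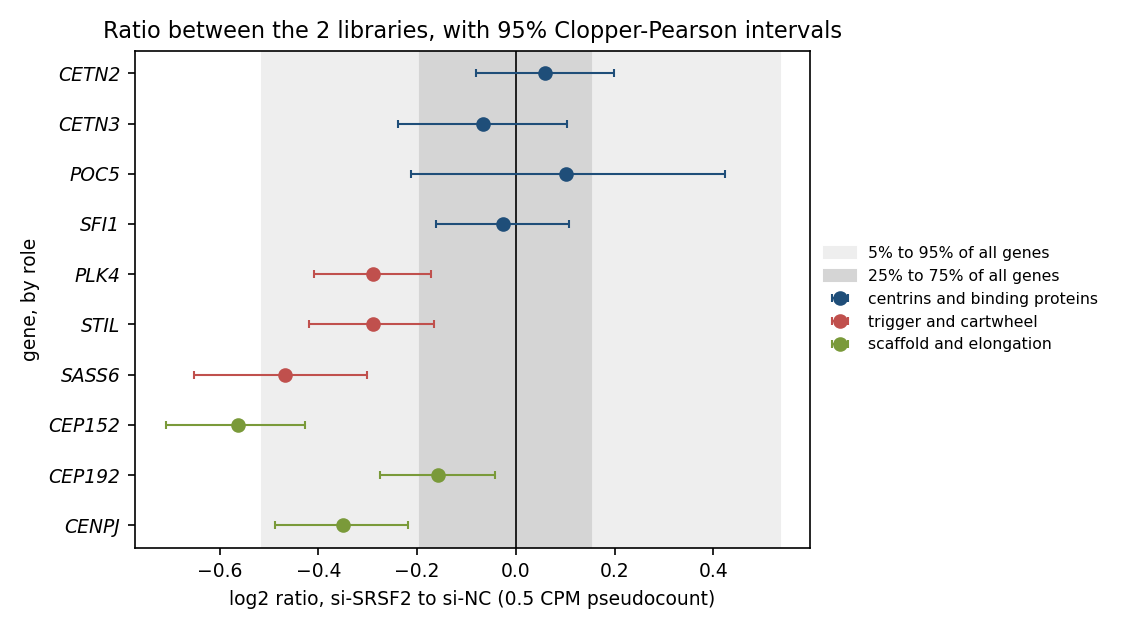
The x axis gives the log2 ratio, si-SRSF2 over si-NC, for each of the 10 genes by role, with bars for 95% Clopper-Pearson intervals and grey bands for the central ranges of all 12620 genes. The 4 centrin and centrin-binding genes lie at -0.07 to 0.10 with intervals that include 0, and the 6 assembly genes at -0.56 to -0.16 with intervals below 0.

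Within a library, levels of different genes were compared per kb of the canonical GENCODE transcript. In si-NC, CETN2 was the most abundant with 34.4 CPM per kb, followed by PLK4 with 20.4 and CETN3 with 14.3. The intervals of these levels did not meet. STIL, SFI1, CENPJ, CEP152, SASS6 and CEP192 followed in that order from 13.8 to 9.68 CPM per kb, each with an interval that met that of the gene before it. POC5 was apart at the low end with 4.36 CPM per kb.

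In si-SRSF2, CETN2 again came first with 35.8 CPM per kb, then PLK4 with 16.6 and CETN3 with 13.6. SFI1 at 13.2 met the interval of CETN3, while STIL at 11.3 lay below SFI1 and CENPJ at 9.73 lay below STIL. CEP192 at 8.67, CEP152 at 7.56 and SASS6 at 7.29 CPM per kb each met the gene before them, and POC5 was last at 4.70. CEP152 and SASS6 thus stood below CEP192 here and above it in si-NC. The interval of CEP152 lay above that of CEP192 in si-NC and met it in si-SRSF2, while that of SASS6 met it in si-NC and lay below it in si-SRSF2.

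**Figure D3:**
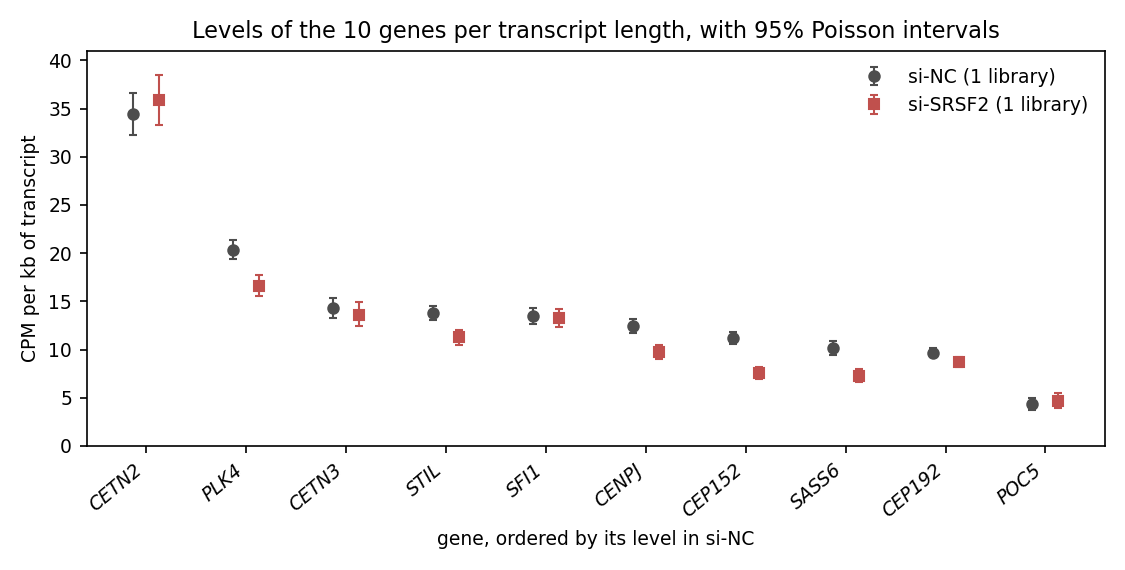
Levels of the 10 genes in CPM per kb of transcript on the y axis, with genes ordered by their level in si-NC, 1 point per library and bars for 95% Poisson intervals. CETN2 leads in both libraries at 34.4 and 35.8, and POC5 is lowest at 4.36 and 4.70.

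Ratios of per-length levels inside a library do not depend on the scaling between libraries, and 7 pairs of members were computed. CEP152 stood at 1.16 times CEP192 in si-NC (1.07 to 1.25) and at 0.872 times in si-SRSF2 (0.787 to 0.965). SASS6 stood at 0.709 times CETN3 in si-NC (0.639 to 0.787) and at 0.535 times in si-SRSF2 (0.467 to 0.612). For these 2 pairs the interval with si-SRSF2 lay below that with si-NC, and for the other 5 the intervals overlapped. CETN3 stood at 0.415 times CETN2 (0.376 to 0.458) and 0.380 times (0.338 to 0.427), and STIL at 0.678 times PLK4 (0.630 to 0.729) and 0.677 times (0.616 to 0.745). PLK4 stood at 1.42 times CETN3 (1.30 to 1.56) and 1.22 times (1.09 to 1.37). SASS6 stood at 0.734 times STIL (0.672 to 0.802) and 0.647 times (0.573 to 0.729), and CENPJ at 1.23 times SASS6 (1.12 to 1.34) and 1.34 times (1.18 to 1.51). The pairs were chosen after values were seen.

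Promoter windows from RefSeq on GRCh38.p14, from 250 bases before to 50 bases after a gene's start, were found for 9 of the 10 genes, all but CETN3. The windows of SFI1 and STIL lay at starts 7451 and 745 bases from the start of the GENCODE gene. After the values were seen, letters known from promoters of genes with cell-cycle expression were searched on both strands. These were CCAAT, the sequence TTTGAA of the CHR element, and 4 E2F words (GGCGGGAA, GCGGGAAA, GCGCCAAA and GCGCGAAA), of which some can overlap each other. CCAAT was in 5 of the 9 windows and in 34.6% of 35116 windows of the same length, TTTGAA in 4 and in 15.2%, and an E2F word in 3 and in 5.03%. CEP152 and CEP192 held both TTTGAA and an E2F word, as did 0.467% of all windows. The windows searched were not limited to genes expressed here, while each member gave the window nearest its GENCODE start, so the sets differ in kind.

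The windows of the 2 genes with the lowest ratios, and of CETN2 as the most abundant gene per kb of transcript, are printed with these matches in capitals, a choice made after the values were seen. They lie on the minus strand at chr15:48811020-48811319 (CEP152), chr1:100132881-100133180 (SASS6) and chrX:152830708-152831007 (CETN2).
CEP152: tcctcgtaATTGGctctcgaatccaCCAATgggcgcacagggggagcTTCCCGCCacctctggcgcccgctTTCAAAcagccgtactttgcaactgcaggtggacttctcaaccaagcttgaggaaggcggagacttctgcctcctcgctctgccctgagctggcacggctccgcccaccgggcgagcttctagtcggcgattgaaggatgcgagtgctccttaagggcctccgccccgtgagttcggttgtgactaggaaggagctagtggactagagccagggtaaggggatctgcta
SASS6: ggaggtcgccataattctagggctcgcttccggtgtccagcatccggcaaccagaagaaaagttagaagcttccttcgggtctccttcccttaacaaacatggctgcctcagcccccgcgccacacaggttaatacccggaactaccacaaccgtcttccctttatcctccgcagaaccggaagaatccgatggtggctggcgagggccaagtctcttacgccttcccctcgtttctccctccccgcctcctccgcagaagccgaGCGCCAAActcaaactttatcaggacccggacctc
CETN2: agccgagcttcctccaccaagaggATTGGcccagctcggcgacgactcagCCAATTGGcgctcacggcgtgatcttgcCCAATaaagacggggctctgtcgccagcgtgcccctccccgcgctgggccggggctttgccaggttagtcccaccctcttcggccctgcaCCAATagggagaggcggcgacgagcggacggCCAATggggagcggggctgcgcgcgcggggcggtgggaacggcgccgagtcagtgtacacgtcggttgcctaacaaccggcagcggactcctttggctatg
The CEP152 window held 2 CCAAT, 1 TTTGAA and 1 E2F match, the SASS6 window 1 E2F match, and the CETN2 window 6 CCAAT matches. CENPJ, with the third lowest ratio at -0.35, held 0 matches, as did SFI1, while POC5, with the highest at 0.10, held 2 CCAAT and 1 TTTGAA. CEP192 held 2 CCAAT, 1 TTTGAA and 2 E2F matches, STIL 3 CCAAT and PLK4 1 TTTGAA. A match says that the letters are present and nothing about which factor binds there.

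The other genes of the centriole and centrosome were taken from lists drawn up by function. Of 81 such genes in 6 lists, 79 passed 1 CPM, and 58 of these (73.4%) were lower in si-SRSF2. Their median log2 ratio was -0.09, and 27 had an interval below 0 against 8 above 0. By comparison, 53.8% of all genes were lower, 26.7% had an interval below 0 and 21.0% above 0, and the median was -0.02. The median of the 6 assembly genes was -0.32.

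Of 6 other recruitment scaffold genes, 3 were higher and 3 lower, with a median of 0.04, while 53.8% of all genes were lower, with a median of -0.02. RBM14, an RNA-binding protein that restrains extra centriole assembly, was the highest at 0.43 (954 and 939 counts), and CEP57L1, which helps hold centriole pairs together, the lowest at -0.47 (746 and 391). Among 20 other genes of cartwheel, elongation and length control, 15 were lower and 5 higher, with a median of -0.09. CEP97, a cap protein of the distal end, was the lowest at -0.42 (1230 and 670 counts). PPP1R35, a protein of centriole elongation, was the highest at 0.30 (490 and 441), and 30.6% of its canonical transcript overlaps a gene model on the opposite strand.

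The inner scaffold and the tubulins had 9 genes, of which 6 were lower, with a median of -0.04. By comparison, 53.8% of all genes were lower, with a median of -0.02. TUBG1, the main gamma-tubulin, stood at -0.25 (1108 and 675 counts) and FAM161A, an inner scaffold protein, at 0.18 (436 and 361). TUBG1 shares 36.7% of its sampled 31-base words with TUBG2, so the split of reads between them is uncertain. Of 15 distal-end and appendage genes that passed 1 CPM, out of 17 listed, 12 were lower and the median was -0.18. NINL, a ninein-like protein that anchors microtubules, was the lowest above 5 CPM at -0.37 (512 and 287 counts), and CEP83, an appendage protein, the highest at 0.10 (476 and 373). Of these lists, the distal-end list had the lowest median.

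CEP170, a subdistal appendage protein named here after its value was seen, was the only one of the 79 genes past 1.5-fold. Among all genes, 4.18% were at least that much higher and 3.52% lower. CEP170 had 74 counts with si-NC against 11 with si-SRSF2, or 3.71 and 0.758 CPM, and a ratio of -1.74 (-3.36 to -1.37). It passed a mean of 1 CPM only through the si-NC library. The ratio was -2.15 with a pseudocount of 0.1 CPM and -1.05 with 2 CPM. Of the sampled 31-base words of CEP170, 92.6% occur on alternate-locus scaffolds of the genome and 50.1% in its pseudogene CEP170P1. Its count is therefore uncertain, and the part of these copies in the difference was not tested.

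In the pericentriolar material, the protein cloud that nucleates microtubules around the centrioles, 13 of 18 genes were lower and the median was -0.08. TUBGCP4, a subunit of the gamma-tubulin ring, stood at -0.38 (1704 and 949 counts), and LRRC45, a linker protein, at 0.26 (263 and 230). The TUBGCP4 transcript overlaps TP53BP1 on the opposite strand over 45.0% of its length. Among 11 satellite genes, whose proteins travel to and from the centrosome, 9 were lower with a median of -0.14. Beside both lists, 53.8% of all genes were lower, with a median of -0.02. CEP131 was the lowest at -0.35 (454 and 257 counts) and CCDC66 the highest at 0.29 (363 and 324).

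**Figure D4:**
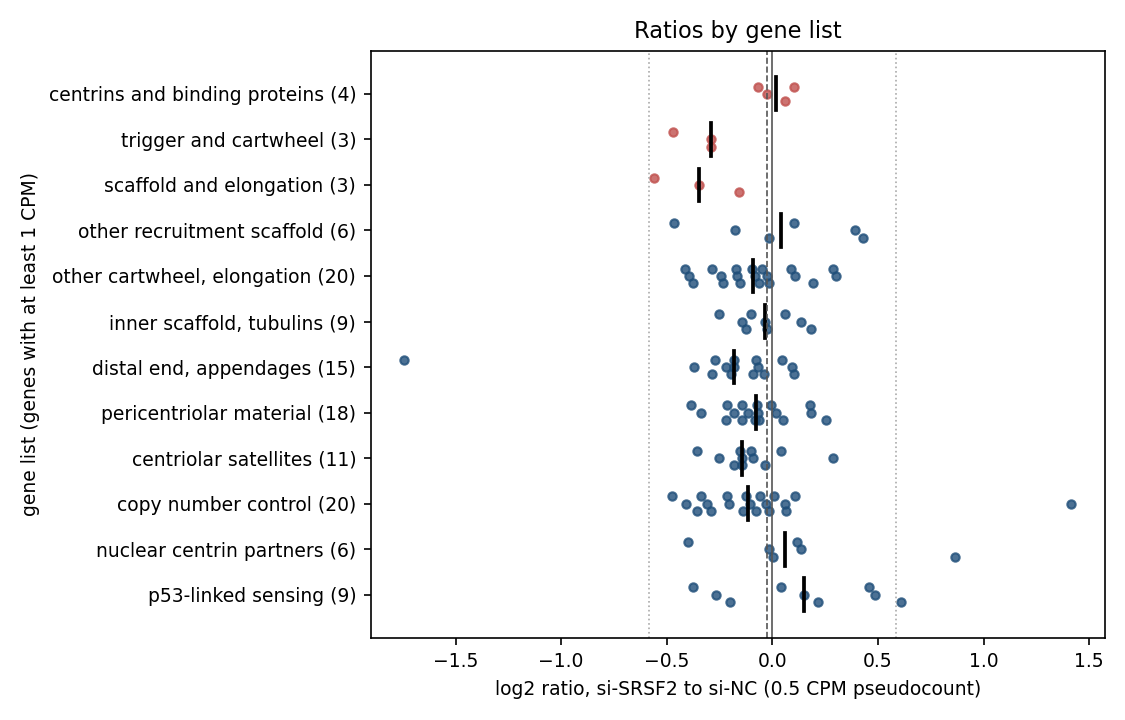
The x axis gives the log2 ratio, si-SRSF2 over si-NC, for genes that passed 1 CPM, 1 point per gene, with the number of genes in each list in brackets. Black bars mark list medians, the dashed line the median of all genes (-0.02) and dotted lines a 1.5-fold difference, and the described genes are in red.

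Genes that control the number of centrioles through the cell cycle and protein turnover were lower in 15 of 20 cases, with a median of -0.11, while 53.8% of all genes were lower and their median was -0.02. Of the 20, 8 had an interval below 0 and 2 above 0, against 26.7% and 21.0% of all genes. ESPL1, the separase whose cleavage of cohesin and pericentrin lets centrioles disengage, was the lowest at -0.48 (2018 and 1054 counts). YWHAE, a 14-3-3 protein, was the only one past 1.5-fold, against 4.18% of all genes higher and 3.52% lower by as much. It was also the highest at 1.42 (1.23 to 1.68), with 248 and 494 counts. Of its sampled 31-base words, 93.1% occur on alternate-locus scaffolds, so its count is uncertain, and the part of these copies in the difference was not tested.

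Centrins also have partners in the nucleus. XPC, which binds CETN2 in the complex that detects DNA damage, had 794 counts with si-NC against 1058 with si-SRSF2, or 39.8 and 72.9 CPM, and a ratio of 0.86 (0.74 to 1.01). XPC was the only 1 of the 6 partners described past 1.5-fold, while CETN2 stood at 0.06. Of all genes, 4.18% were at least 1.5-fold higher and 3.52% at least 1.5-fold lower.

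RAD23B, which stabilises XPC, stood at -0.02 with 10097 and 7271 counts. In the complex that links transcription to mRNA export, which also holds centrin, MCM3AP stood at 0.00 (2143 and 1564 counts), ENY2 at 0.12 (1693 and 1336), SEM1, listed as SHFM1, at 0.13 (2832 and 2264) and PCID2 at -0.40 (2677 and 1476). Of the 6, 4 were higher and 2 lower, with a median of 0.06, while 53.8% of all genes were lower. With upper-quartile factors 5 were higher and 1 lower. The intervals of MCM3AP and RAD23B included 0. XPC overlaps its antisense gene XPC-AS1 over 30.0% of its transcript, and MCM3AP overlaps its antisense gene over 24.4%. Whether the counting used strand is not given in the sources used here, so reads of these genes are uncertain.

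The list of p53-linked sensing of centrosome number had 6 of 9 genes higher and a median of 0.15. Its members act in, or limit, the arrest that follows centriole loss or excess. MDM2, the ligase that limits p53 and is itself induced by it, was the highest at 0.61 (6905 and 7668 counts), the only one past 1.5-fold, and 10.5% of its transcript overlaps a gene model on the opposite strand. CRADD, an adaptor of the PIDDosome, was the lowest at -0.38 (313 and 174). Intervals lay above 0 for 5 of the 9 genes and below 0 for 3, against 21.0% and 26.7% of all genes. Among all genes, 53.8% were lower, the median was -0.02, and 4.18% were at least 1.5-fold higher against 3.52% lower.

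The remaining centrin genes had few or no counts. CETN1, a centrin of testis and retina, had 0 counts in both libraries, which allows up to 0.151 CPM with si-NC against 0.207 CPM with si-SRSF2 (3 counts). CETN4P, a centrin pseudogene, had 14 and 28 counts, or 0.702 and 1.93 CPM, and a ratio of 1.01 (0.48 to 2.50). It passed a mean of 1 CPM only through the si-SRSF2 library. Of all genes, 4.18% were at least 1.5-fold higher and 21.0% had an interval above 0.

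The label of the cells was checked against markers. KRT8 (547 and 618 counts) and KRT18 (632 and 477), keratins of simple epithelia, EPCAM (179 and 147), a surface protein of epithelia, and CDX2 (212 and 158), an intestinal transcription factor, were present in both libraries. KRT19 and VIL1 had 1 count in each, CDX1 had 0 in both, and CDH1 had 10 and 6. Of the epithelial list, 4 of 8 genes thus passed 1 CPM, and its summed level was 79.4 CPM with si-NC against 97.01 CPM with si-SRSF2. KRT8 was more than 1.5-fold higher, at 27.4 and 42.6 CPM with a ratio of 0.62. Of all genes, 4.18% were at least 1.5-fold higher and 3.52% lower. Of the sampled 31-base words of KRT8, 59.7% occur in other genes, led by the pseudogene KRT8P3. KRT18 shares 73.4% of its words with other genes, led by the pseudogene KRT18P11, and 26.5% of its transcript overlaps KRT8 on the opposite strand. The counts of both keratins are therefore uncertain.

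Of 10 markers of other cell types, 1 passed 1 CPM. CD68, a lysosomal protein used as a macrophage marker, had 15206 and 14256 counts, and 94.9% of its transcript is shared with an overlapping gene model. It made up nearly all of the list's summed 764.2 and 983.5 CPM. Of the markers that define other cells, CD3E, PECAM1, DCN and ALB had 0 counts in both libraries, PTPRC had 2 and 0, LUM 0 and 1, VWF 2 in each, COL1A1 13 in each and COL1A2 8 and 3. The part of the CD68 difference in the ratios of the centriole genes was not tested. The mitochondrial share of counts was 4.45% with si-NC and 4.82% with si-SRSF2.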

How the data were processed

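Total RNA of RKO cells was made into libraries with the TruSeq Stranded mRNA kit and read as 150 bp pairs on a HiSeq X. The authors aligned reads to GRCh38 with HISAT2 (2.0.4 in the submitters' processing notes) and deposited raw counts per gene symbol made with HTSeq, whose version and strand mode are not given in the sources used here. Overlapping and antisense genes are therefore uncertain. The methods name Ensembl 100, while the table uses many symbols in the NCBI style. The study's table of CETN3 exon reads was not used here.

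The members and lists were chosen with earlier results of these data known. Named at any level were all 10 members, SRSF2, and every nuclear partner and other centrin gene. In each other list, the highest, the lowest and any gene at least 1.5-fold different were named, provided their mean reached 5 CPM. The cell markers, listed apart to check the label, were also all named, whatever their level. Others are said to be chosen after their values were seen. Of the listed genes, 2 are not reported here and were left out of their lists.

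Library sizes were adjusted by the TMM method of edgeR 4.0.16 under R 4.3.3, and ratios were computed in Python 3.11.15 with a pseudocount of 0.5 CPM for genes that passed a mean of 1 CPM. Intervals (95%, SciPy 1.17.1) were Clopper-Pearson for ratios and exact Poisson for levels. No test was run. The calculations were tested on simulated data. Lengths, exons and overlaps came from GENCODE 44. Shared sequence was counted as 31-base words, every 10th one, of canonical transcripts, looked up in other genes' transcripts and on 261 alternate-locus scaffolds. Other scalings tried were upper-quartile factors, total counts, size factors of DESeq2 1.42.0 and TMM without mitochondrial and the 20 most abundant genes. Other settings were pseudocounts of 0.1 and 2 CPM, no filter, and a minimum of 5 CPM. Alternatives for the median of all genes, the numbers of members lower or with an interval below 0, the numbers of genes lower in each list and among all genes, and for XPC, PCID2, YWHAE and CEP170, were chosen after seeing the data.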

Additional observations from a re-analysis of the deposited data

How the results depend on the processing

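Across the 4 other scalings and both other pseudocounts, the log2 ratio of CETN3 ran from -0.07 to -0.04, that of CEP152 from -0.57 to -0.54 and that of SASS6 from -0.47 to -0.44. The members' median ran from -0.22 to -0.20 and the median of all genes from -0.03 to 0.00. Under every alternative run, 8 members were lower in si-SRSF2, 6 had an interval below 0 and 0 were past 1.5-fold. The numbers of genes past 1.5-fold in the whole table depended on the settings: 527 higher and 444 lower became 254 and 220 with a pseudocount of 2 CPM, 1262 and 837 without a filter, and 202 and 237 with a minimum of 5 CPM. These counts follow from how many low genes are included or shrunk. The ratio of CEP170 was -2.15 with a pseudocount of 0.1 CPM and -1.05 with 2 CPM. With upper-quartile factors, 55 of the 79 other centriole and centrosome genes were lower in place of 58, with 24 intervals below 0 and 12 above 0. The other recruitment scaffold genes went from 3 higher and 3 lower to 4 and 2. SRSF2 ran from -1.003 to -0.973. The members' intervals had a median half-width of 0.14 (log2). They were narrowest for CEP192 (-0.28 to -0.04) and widest for POC5 (-0.21 to 0.42), so the smallest detectable difference varied by gene. No replicate could be left out. No paired analysis was possible because there was 1 library per group.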
